A study of Mus musculus with 12 samples.

Results

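The 36 genes described here encode proteins of chromosome replication (18 genes) and of mitosis (18 genes). They were chosen by symbol and were all found among the 52636 genes of both deposited count tables by matching gene identifiers to symbols. The replication genes run from the subunits of the MCM2-7 helicase to ribonucleotide reductase, and the mitosis genes from the cyclins to the spindle motors. The cells were E14, a mouse embryonic stem cell (ESC) line, kept on gelatin in medium holding LIF and inhibitors of MEK and GSK3. In the knockdown (KD), an shRNA was directed against circKat6b-e2, a circular RNA of the Kat6b locus. The study asked how KD and wild-type (WT) cells compare as undifferentiated ESCs and after 6 days as embryoid bodies (EBs), the cell aggregates that ESCs form as they exit pluripotency. The groups were KD EBs, WT EBs, KD ESCs and WT ESCs, with 3 libraries each, stated to be biological replicates. The sources used here give neither a control shRNA for the WT cells nor whether the KD line was clonal or pooled, so a KD minus WT value includes whatever else set the KD and WT cells apart. Libraries were made from mRNA selected with poly-T beads, which lose circular RNA, and circKat6b-e2 itself was not measured.

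Replication and mitosis genes are the best known periodically transcribed genes of dividing cells. Genes of the G1/S transition are bound by E2F factors and their pocket proteins, and genes of G2 and mitosis by the MuvB complex with B-MYB or FOXM1. ESCs divide fast, with a short G1 phase and high E2F activity, and cells that leave pluripotency lengthen G1. The level of such a gene in a bulk sample depends on how many cells are in the phase that transcribes it and on how much each makes, and fewer cells of a type and less RNA per cell cannot be told apart in these data.

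The classes also differ in their promoters, which are shown for 3 genes of each class whose levels are described below. Promoters, taken from RefSeq on GRCm38.p6 as the 250 bases before and the 50 bases from the gene start, were held for 29 of the 36 members. In the sequences of Mcm3 (chr1:20820263-20820562, minus strand), Mcm6 (chr1:128359656-128359955, minus strand) and Cdt1 (chr8:122567765-122568064, plus strand), capitals mark matches on either strand to E2F-type motifs (TTTCCCGC, TTTGGCGC, TTTCGCGC or TTTGCCGC), and matches that overlap are joined.
Mcm3: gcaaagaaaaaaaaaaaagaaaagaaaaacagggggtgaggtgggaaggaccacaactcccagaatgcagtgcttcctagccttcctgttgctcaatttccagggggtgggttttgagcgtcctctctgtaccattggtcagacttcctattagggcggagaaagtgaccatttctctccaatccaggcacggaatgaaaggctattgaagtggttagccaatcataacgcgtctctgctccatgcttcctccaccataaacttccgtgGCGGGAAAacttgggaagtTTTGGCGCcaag
Mcm6: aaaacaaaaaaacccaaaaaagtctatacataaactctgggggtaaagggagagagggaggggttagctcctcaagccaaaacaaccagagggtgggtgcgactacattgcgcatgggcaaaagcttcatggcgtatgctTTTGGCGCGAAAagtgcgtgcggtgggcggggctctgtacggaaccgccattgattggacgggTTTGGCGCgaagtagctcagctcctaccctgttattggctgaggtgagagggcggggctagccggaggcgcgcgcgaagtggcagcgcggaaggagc
Cdt1: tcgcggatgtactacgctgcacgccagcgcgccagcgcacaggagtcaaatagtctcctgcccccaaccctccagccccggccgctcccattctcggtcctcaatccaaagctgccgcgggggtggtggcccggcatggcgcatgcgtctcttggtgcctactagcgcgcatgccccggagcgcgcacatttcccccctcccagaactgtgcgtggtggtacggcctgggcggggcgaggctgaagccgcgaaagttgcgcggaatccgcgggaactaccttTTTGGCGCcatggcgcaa

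In those of Ccnb2 (chr9:70421505-70421804, minus strand), Plk1 (chr7:122159185-122159484, plus strand) and Aurka (chr2:172370521-172370820, minus strand), capitals mark matches on either strand to the CHR element of mitotic promoters (TTTGAA or TTCGAA) and to the CCAAT box.
Ccnb2: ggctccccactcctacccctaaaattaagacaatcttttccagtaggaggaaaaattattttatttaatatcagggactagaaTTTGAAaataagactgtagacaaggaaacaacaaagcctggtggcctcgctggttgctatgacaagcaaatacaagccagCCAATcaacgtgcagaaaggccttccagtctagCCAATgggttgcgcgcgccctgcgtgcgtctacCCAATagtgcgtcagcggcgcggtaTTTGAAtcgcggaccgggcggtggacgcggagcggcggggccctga
Plk1: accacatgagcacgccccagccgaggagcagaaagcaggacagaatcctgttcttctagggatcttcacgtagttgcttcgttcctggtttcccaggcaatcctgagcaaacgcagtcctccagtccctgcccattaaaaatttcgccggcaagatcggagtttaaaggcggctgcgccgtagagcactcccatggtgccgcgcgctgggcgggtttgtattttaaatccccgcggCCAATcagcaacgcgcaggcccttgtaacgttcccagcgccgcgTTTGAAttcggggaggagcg
Aurka: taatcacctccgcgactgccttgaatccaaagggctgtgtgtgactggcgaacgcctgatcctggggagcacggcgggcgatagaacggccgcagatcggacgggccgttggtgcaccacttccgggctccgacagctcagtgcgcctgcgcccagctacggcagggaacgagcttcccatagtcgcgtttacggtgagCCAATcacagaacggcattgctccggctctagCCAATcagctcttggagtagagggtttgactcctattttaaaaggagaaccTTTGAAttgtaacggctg

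An E2F-type match was held by 7 of the 14 replication genes with a promoter (Mcm3, Mcm5, Mcm6, Mcm7, Cdc6, Cdt1 and Pola1) and by 1 of the 15 mitosis genes (Cdk1), against 2.26% of all 32851 promoters of the table. A CHR match was held by 3 of the 14 replication genes (21.4%) and by 11 of the 15 mitosis genes (73.3%), against 19.2% of all promoters. CCAAT matches were held by 11 of the 14 replication genes and 13 of the 15 mitosis genes, against 37.4% of all promoters. They were not marked in the replication promoters above, where Mcm3 holds 3, Mcm6 2 and Cdt1 0. The replication genes shown are all among the 7 with an E2F-type match, and the mitosis genes shown among the 11 with a CHR match. These matches describe the letters in the window and are not evidence of binding. A gene counted as holding a motif if any of its promoters did.

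Total counts per library ran from 25.4 to 37.8 M. WT ESC replicate 2 stood apart. Its chi-square per gene against the other WT ESC libraries was 55.4 and 56.0. The other replicate pairs had 4.78 to 9.11. The calls of members for KD minus WT in ESCs and for the interaction are therefore given with and without that library. Pluripotency markers summed to 394.5 to 449.4 CPM in KD EBs and 200.4 to 210.4 CPM in WT EBs, and to 8643 to 9201 CPM in KD ESCs and 8572 to 10750 CPM in WT ESCs, as the stage labels say. Kat6b, the gene that circKat6b-e2 comes from, had 62.3, 62.0 and 60.5 CPM in KD EBs against 30.8, 30.1 and 29.0 CPM in WT EBs, and 106, 98.6 and 106 CPM in KD ESCs against 89.3, 66.1 and 80.5 CPM in WT ESCs. These are linear transcripts and check nothing about the circular RNA. All 36 members passed the filter on low counts in each comparison. Levels are counts per 1 M counts of a library (CPM) on TMM-normalised library sizes. The KD minus WT values use the normalisation of their own stage, and EB minus ESC values that of all 12 libraries, so the levels of a group differ between those comparisons. Log2 fold changes and their standard errors (SE) come from edgeR's quasi-likelihood test, and calls use p-values adjusted by Benjamini-Hochberg over all genes tested, with a threshold of 0.05. These p-values measure the spread among 3 libraries a group.

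**Figure D1:**
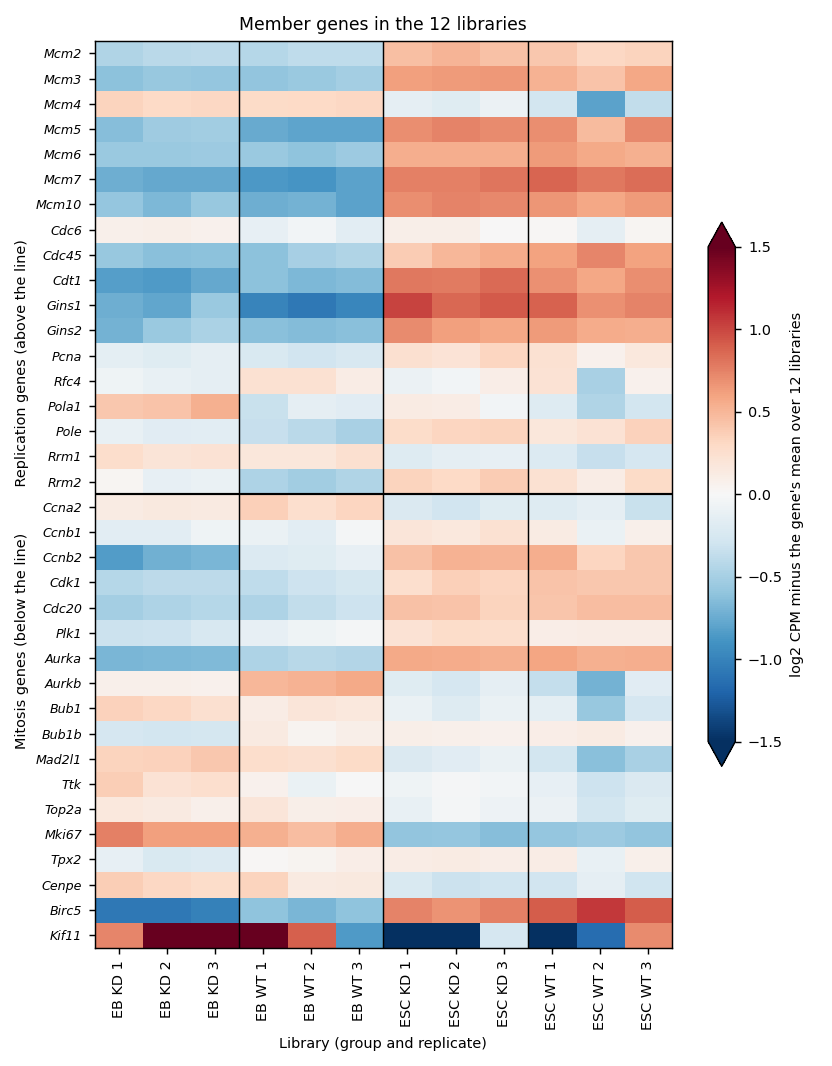
Level of each member gene (rows) in each of the 12 libraries (columns), as log2 CPM minus the gene's mean over the 12 libraries, with colour limits at −1.5 and 1.5. Most replication genes are lower in the EB libraries than in the ESC libraries, the mitosis genes are divided, and Kif11 varies among replicates of every group.

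In EBs most of the mitosis members were lower in KD than in WT cells, and the replication members were divided. Other genes of both classes, described further on, did not show this contrast (medians −0.017 for mitosis and −0.018 for replication). Of the 18 mitosis genes 11 were lower and 2 higher, and of the 18 replication genes 4 were lower and 6 higher, 23 of 36 in all. Over all 17355 genes tested 55.7% were called, 27.7% lower and 28.0% higher, so the KD EBs differed from WT EBs across much of the transcriptome. The median log2 fold change was −0.15 for mitosis genes and 0.021 for replication genes, beside 0.002 for all genes tested. The members' changes were small: the largest called fall and rise were −0.64 (Ccnb2) and 0.61 (Pola1).

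Among the cyclins and their kinase, Ccnb2, a B-type cyclin that drives entry into mitosis, changed most. It had 81.2, 87.2 and 89.3 CPM in KD EBs and 131, 133 and 138 CPM in WT EBs. Every KD library lay below every WT library, a log2 fold change of −0.64 (SE 0.044, edgeR adjusted p = 1.08e-13). Named pseudogene copies of Ccnb2 and of Ccnb1 exist. How reads that fit several places were counted is not given in the sources used here. Ccna2, the cyclin of S phase and early mitosis, had 172, 174 and 172 CPM in KD EBs and 210.2, 196 and 205 CPM in WT EBs. It also fell without overlap (−0.24, SE 0.036, edgeR adjusted p = 1.24e-06). Exosc9 on the other strand overlaps 12.49% of the Ccna2 exon bases, and the counting named no strand option. Cdk1, the kinase these cyclins activate, fell by 0.14 and Ccnb1 by 0.092 on the log2 scale (edgeR adjusted p = 0.00109 and 0.0301). The Ccnb1 call was lost in 4 of the 6 fits without 1 library, those without KD replicate 1 or 2 and those without WT replicate 1 or 3 (adjusted p up to 0.18).

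The Aurora and Polo kinases and their partners fell. Aurkb, the kinase of the chromosomal passenger complex, had 94.2, 93.2 and 92.2 CPM in KD EBs and 131, 133 and 137 CPM in WT EBs. The groups were well apart (−0.52, SE 0.041, edgeR adjusted p = 2.45e-12). Its partner Birc5 (survivin) had 105, 104 and 108 CPM in KD EBs and 150.1, 142 and 150.5 CPM in WT EBs. It fell to a like degree (−0.48, SE 0.04, edgeR adjusted p = 1.36e-11). Aurka, the centrosome and spindle pole kinase, had 160.1, 161 and 160.4 CPM in KD EBs and 194, 201 and 196 CPM in WT EBs. Its KD libraries differed from each other by less than 1 CPM and lay below all WT libraries (−0.29, SE 0.035). Tpx2, which activates Aurora A on spindle microtubules, had 253, 234 and 237 CPM in KD EBs and 290.2, 294 and 305 CPM in WT EBs. It fell by almost the same log2 amount (−0.30, SE 0.035). Plk1, a kinase of mitotic entry and spindle assembly, had 146, 146 and 153 CPM in KD EBs and 174, 182 and 186 CPM in WT EBs. It too was lower in every KD library (−0.28, SE 0.038). The edgeR adjusted p of Aurka, Tpx2 and Plk1 were 2.11e-08, 1.71e-08 and 1.84e-07.

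Genes of the spindle checkpoint, which holds cells before anaphase until all chromosomes are attached, did not move as a group. Bub1b (BUBR1), a component of the complex that inhibits anaphase, had 203, 199 and 199.7 CPM in KD EBs and 276, 259 and 266 CPM in WT EBs. It fell by 0.41 on the log2 scale (SE 0.034, edgeR adjusted p = 9.05e-12). Ttk (MPS1), the kinase that starts checkpoint signalling, had 93.1, 83.2 and 85.1 CPM in KD EBs and 78.1, 69.7 and 74.1 CPM in WT EBs. Its groups did not overlap and it rose (0.24, SE 0.051, edgeR adjusted p = 2.42e-04). Bub1, a kinetochore kinase, was called higher (0.094, edgeR adjusted p = 0.0464), but not in 5 of the 6 fits without 1 library (adjusted p up to 0.179, called only without KD replicate 3). Mad2l1 had a log2 fold change of 0.037 (SE 0.041) and was not called. Cdc20, the checkpoint's target and activator of the anaphase-promoting complex, fell by 0.15 (edgeR adjusted p = 0.00105). The remaining chromosome and spindle genes were not called: Top2a (topoisomerase II alpha) at −0.062, Mki67, the proliferation antigen that coats mitotic chromosomes, at 0.083, Cenpe, a kinetochore motor, at 0.052, and Kif11, described further on.

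**Figure D2:**
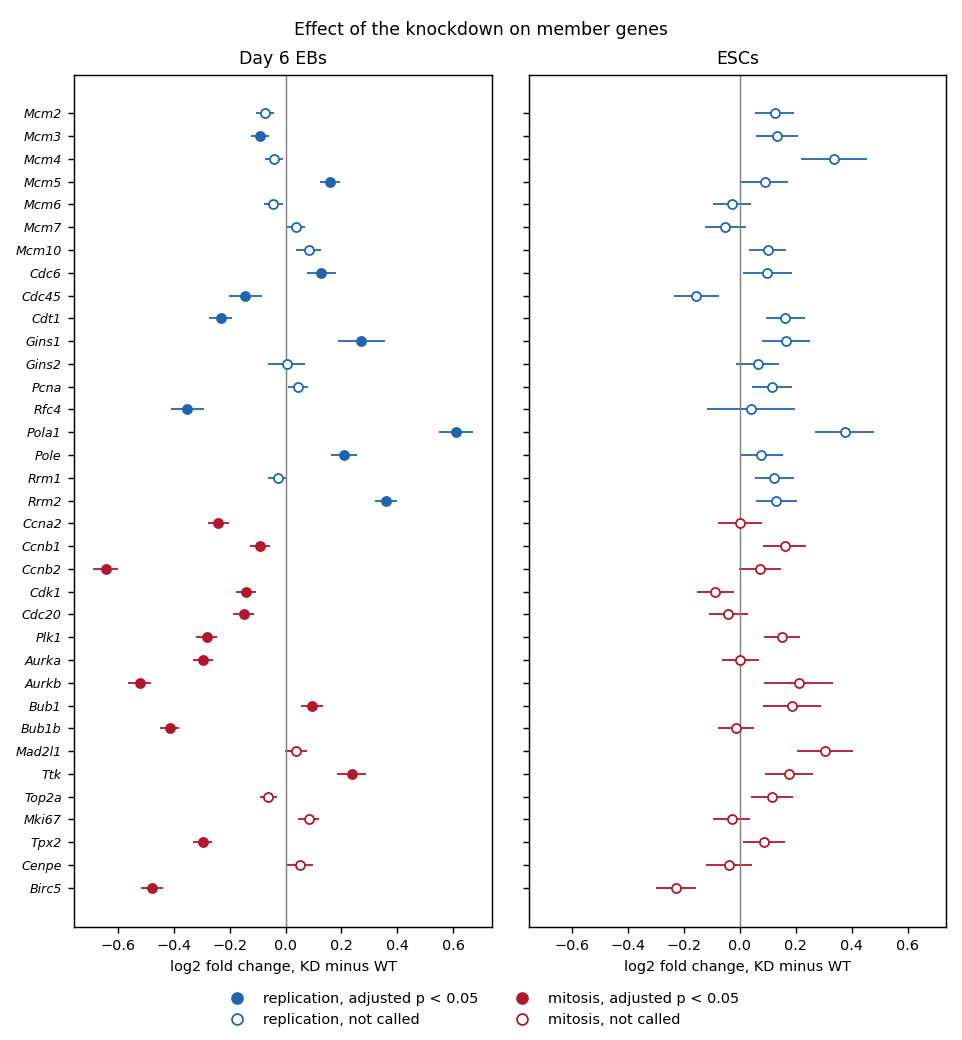
Log2 fold change of KD minus WT with its SE (bars) for the members other than Kif11, in day 6 EBs (left) and in ESCs (right), with filled points for genes called at an adjusted p under 0.05. In EBs 11 mitosis genes (red) lie below 0 and are called, and in ESCs no member is called and the bars are wider.

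Among the replication genes the largest change was that of Pola1, the catalytic subunit of the polymerase that makes primers. Pola1 had 61.6, 62.0 and 66.2 CPM in KD EBs and 38.1, 43.9 and 42.5 CPM in WT EBs. All KD libraries lay above all WT libraries (0.61, SE 0.062, edgeR adjusted p = 7.21e-10). Rrm2, the small subunit of ribonucleotide reductase, had 234, 209.7 and 212 CPM in KD EBs and 172, 166 and 174 CPM in WT EBs. It rose as well (0.36, SE 0.04, edgeR adjusted p = 5.43e-09), while the large subunit Rrm1 was at −0.028 (SE 0.034) and was not called. Pole, the leading strand polymerase, rose by 0.21 (SE 0.046, edgeR adjusted p = 2.84e-04).

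The clamp loader subunit Rfc4 had 46.8, 45.1 and 44.0 CPM in KD EBs and 59.4, 59.4 and 54.5 CPM in WT EBs. It fell by 0.35 (SE 0.059, edgeR adjusted p = 7.87e-06). Its call was lost when the effect was taken from the fit of all 12 libraries (−0.29, adjusted p = 0.0933). The opposite-strand gene Eif4a2 shares 12.65% of its exon bases. Pcna, the clamp that Rfc4 helps to load, was at 0.044 (SE 0.035) and was not called. Named pseudogene copies of Pcna exist, and how reads that fit several places were counted is not given in the sources used here.

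The genes that load and activate the helicase moved in opposite directions. Cdt1, a loading factor held back by geminin outside G1, had 106, 104 and 109.6 CPM in KD EBs and 128, 123 and 125 CPM in WT EBs. It fell without overlap (−0.23, SE 0.041, edgeR adjusted p = 1.53e-05). Its fellow loading factor Cdc6 was called higher (0.13, edgeR adjusted p = 0.038), in only 1 of the 6 fits without 1 library, that without WT replicate 2 (adjusted p up to 0.18 in the others). Gins1, a subunit of the GINS complex that completes the active helicase, had 26.1, 25.1 and 29.1 CPM in KD EBs and 22.5, 21.4 and 22.8 CPM in WT EBs. It rose (0.27, SE 0.084, edgeR adjusted p = 0.007), but missed the threshold without KD replicate 3 (adjusted p = 0.0543). Cdc45, the other partner of the active helicase, was called lower (−0.14, edgeR adjusted p = 0.0412), a call lost in 4 of the 6 fits without 1 library (without KD replicate 2 or 3, or WT replicate 2 or 3, adjusted p up to 0.148). Gins2 was at 0.0043 (SE 0.066). It shares 67.32% of its exon bases with Gse1 on the other strand. Its value thus depends on how reads in the shared bases were assigned, which was not tested.

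The genes of the MCM2-7 helicase, which unwinds DNA at the fork, had log2 fold changes between −0.092 and 0.16 in KD EBs. Mcm5 had 243, 259.9 and 262 CPM in KD EBs and 233, 226 and 225 CPM in WT EBs and rose (0.16, SE 0.035, edgeR adjusted p = 2.98e-04). Mcm3 fell by 0.092 (edgeR adjusted p = 0.0168), a call that was lost without WT replicate 3 (adjusted p = 0.0871). Mcm2, Mcm4, Mcm6 and Mcm7 were not called, at −0.073, −0.042, −0.044 and 0.037, nor was Mcm10, an essential factor in starting the fork, at 0.084.

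The KD effect in EBs was also taken from the fit of all 12 libraries, which differs in the normalisation, the genes that pass the filter and the dispersion. The median of all genes was 0.062 there, and 15.0% of all 18975 genes tested were called lower and 20.1% higher. In that fit 1 replication gene (Cdt1) and 8 mitosis genes were lower, and 7 and 2 were higher, with Mcm10 and Mki67 gained. The falls of Mcm3, Cdc45, Rfc4, Ccnb1, Cdk1 and Cdc20 and the rise of Bub1 lost their calls. The falls of Ccnb2, Aurkb, Birc5, Bub1b, Tpx2, Aurka, Plk1 and Ccna2 kept theirs.

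Markers of cell types differed between these EB groups (CPM on the normalisation of all 12 libraries). The summed level of 7 pluripotency markers, of which 6 were called higher in KD, was 394.5 to 449.4 CPM in KD EBs and 200.4 to 210.4 CPM in WT EBs. The sum of 5 cardiac muscle markers was 12.8 to 16.4 CPM in KD EBs and 43.2 to 47.6 CPM in WT EBs, with 4 of 5 lower. That of 5 fibroblast markers (3 higher, 1 lower) was 1268 to 1299 CPM in KD EBs and 392.7 to 401.2 CPM in WT EBs. Of these sums Col3a1 alone made a mean of 722 CPM in KD EBs and 9.46 CPM in WT EBs. Mesoderm markers (3 of 5 higher, 2 lower) summed to 863.6 to 892.5 CPM in KD EBs and 930.5 to 947.5 CPM in WT EBs. Most of these sums was Hand1, with a mean of 509 CPM in KD EBs and 770 CPM in WT EBs. The median log2 fold change of the mesoderm list was 0.93. Endoderm markers (2 of 5 higher, 2 lower) summed to 429.4 to 452.9 CPM in KD EBs and 391.0 to 404.4 CPM in WT EBs, and neural markers (2 of 4 higher, 1 lower) to 76.3 to 79.8 CPM in KD EBs and 57.2 to 61.7 CPM in WT EBs. The 3 tested of 5 blood and endothelial markers (1 higher, 2 lower) summed to 17.3 to 23.0 CPM in KD EBs and 29.8 to 34.0 CPM in WT EBs, where Hba-x and Hbb-bh1 had no count. The part of cell type composition in the members' changes was not tested.

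In undifferentiated ESCs none of the 36 members was called by edgeR, where 0.603% of all 16081 genes tested were (97 genes). At an unadjusted p under 0.05 there were 6 members, 3 of each class, beside 3447 of the 16081 genes tested. DESeq2 called 1 member (Pola1, adjusted p = 0.0428) among 1030 of all genes. The median log2 fold change was 0.11 for replication genes and 0.037 for mitosis genes, beside 0.013 for all genes tested. Pola1 had 37.7, 37.2 and 33.5 CPM in KD ESCs and 30.0, 25.1 and 28.5 CPM in WT ESCs. The groups did not overlap (0.37, SE 0.11, edgeR adjusted p = 0.101). Mcm4, a helicase subunit, had 141, 136 and 145 CPM in KD ESCs and 126, 87.8 and 119.6 CPM in WT ESCs. The lowest of these came from WT replicate 2 (0.34, SE 0.12, edgeR adjusted p = 0.147). Birc5 had 274, 262 and 276 CPM in KD ESCs and 304, 339 and 308 CPM in WT ESCs. It was lower in each KD library (−0.23, SE 0.073, edgeR adjusted p = 0.124).

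The ESC result depends on WT replicate 2. Without it the median log2 fold change was 0.073 for replication genes, 0.019 for mitosis genes and 0.008 for all genes tested. In that fit edgeR called 4 members. These were Pola1 (0.30, adjusted p = 0.0358), Mcm4 (0.19, adjusted p = 0.0147), Plk1 (0.15, adjusted p = 0.0444) and Birc5 (−0.18, adjusted p = 0.00471). Over all genes 1557 (9.35%) were called without that library, against 97 with it, so 4 of 36 members is near the share of all genes. In the fit of all 12 libraries Pola1, Mcm4 and Birc5 were called as well, and so was Mad2l1 (0.29, adjusted p = 0.0284) in place of Plk1, where 10.5% of all genes were called. The SE of the members other than Kif11 lay between 0.0645 (Bub1b) and 0.156 (Rfc4) in ESCs and between 0.0313 (Top2a) and 0.084 (Gins1) in EBs, so an equal effect was harder to call in ESCs.

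Whether the KD effect differed between the stages was tested as an interaction over all 12 libraries. The EB effect was lower than the ESC effect for 6 of the 18 mitosis members and higher for 0 by edgeR. In either direction 8 mitosis genes had an unadjusted p under 0.05, beside 6576 of all 18975 genes tested. DESeq2 also called Mki67 higher. The EB effect was lower for 1 and higher for 1 of 18 replication genes by edgeR. DESeq2 called 1 lower and 4 higher, adding Mcm7, Pola1 and Pole, where 11.7% of all genes were lower and 16.5% higher. Without WT ESC replicate 2 edgeR called 3 replication genes lower and 4 higher and 8 mitosis genes lower, where 13.7% of all genes were lower and 14.2% higher. Over all 18975 genes tested 23.0% were called, 10.2% lower and 12.8% higher, by edgeR with all libraries. Library size alone moves the median of all genes to −0.13, against 0.031 with TMM. With it 8 mitosis and 3 replication genes were lower and 0 members higher, where 2676 of all 18975 genes were lower and 1457 higher. Of all genes called 35.3% were then higher, against 55.6% with TMM. The 6 mitosis genes called with TMM were Aurkb (difference of log2 fold changes −0.66, SE 0.14), Ccnb2 (−0.65, SE 0.09), Plk1 (−0.37, SE 0.069), Bub1b (−0.33, SE 0.065), Tpx2 (−0.32, SE 0.083) and Aurka (−0.23, SE 0.063). Their edgeR adjusted p ran from 1.06e-04 (Ccnb2) to 0.0164 (Aurka). In ESCs these 6 genes had log2 fold changes between −0.013 (Bub1b) and 0.21 (Aurkb). Birc5 fell in EBs and was not called here (−0.18, SE 0.077, edgeR adjusted p = 0.103). Other mitosis genes, in lists described further on, were not one-sided: of 110 tested, 17 were lower and 17 higher. Of 57 other replication genes 6 were lower and 9 higher.

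Of the replication genes Cdt1 had the lower effect in EBs (−0.33, SE 0.072, edgeR adjusted p = 0.00426) and Rrm2 the higher (0.29, SE 0.082, edgeR adjusted p = 0.0177). The Rrm2 call was lost in 6 of the 12 fits without 1 library, namely KD ESC replicate 1 or 2, WT ESC replicate 1 or 3, KD EB replicate 1 or WT EB replicate 2. Its value stayed between 0.226 and 0.323 in all 12.

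The replication class was also set against the mitosis class within each library, as the mean log2 CPM of the 18 replication genes minus that of the mitosis genes, a quantity that the scaling of a library does not move. Kif11 was left out here after its spread had been seen. Without Kif11 the difference was −0.462, −0.459 and −0.435 in KD EBs and −0.692, −0.661 and −0.701 in WT EBs. In ESCs it was 0.069, 0.072 and 0.077 in KD cells and 0.042, −0.016 and 0.054 in WT cells. For this set the classes were thus near parity in ESCs, and the EB libraries of KD and WT cells did not overlap. KD minus WT was 0.23 in EBs and 0.046 in ESCs, beside a pooled SD among replicates of 0.018 and 0.027. With Kif11 the EB value was 0.17 with a pooled SD of 0.063, and the ESC libraries were not near parity. Replication minus mitosis then averaged 0.395 in KD ESCs and 0.331 in WT ESCs. No p is given, since the classes were chosen with earlier results known.

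**Figure D3:**
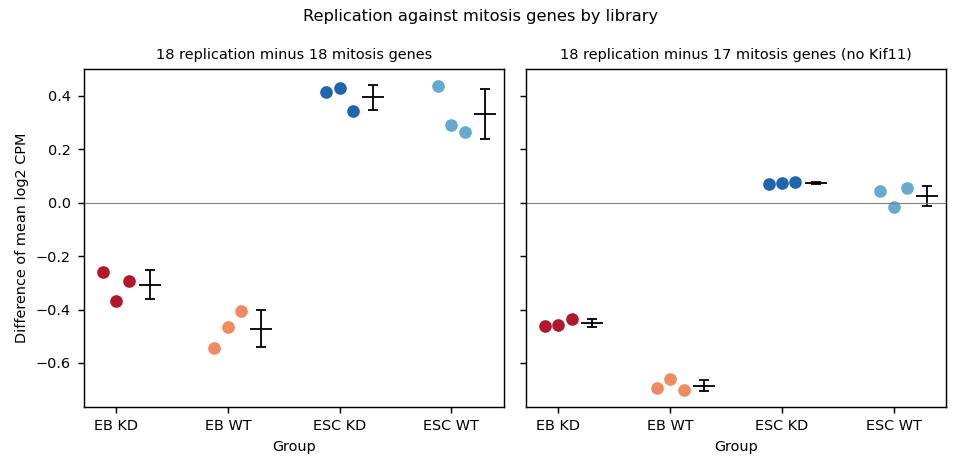
Mean log2 CPM of replication genes minus that of mitosis genes in each library (points), with the group mean and SD (black, n = 3), with Kif11 (left) and without it (right). Without Kif11 the KD EB libraries sit between −0.462 and −0.435 and the WT EB libraries between −0.701 and −0.661, both below the ESC libraries.

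From ESCs to day 6 EBs most replication members fell in both genotypes, and mitosis members went both ways. In KD cells 13 of 18 replication genes were lower and 3 higher in EBs, and in WT cells 13 were lower and 2 higher. Of the 18 mitosis genes 9 were lower and 9 higher in KD cells, and 6 were lower and 8 higher in WT cells. Over all 18975 genes tested 79.8% were called in KD cells, 37.3% lower and 42.5% higher, and the shares were the same to this precision in WT cells. The median log2 fold change of replication genes was −0.98 in KD and −0.91 in WT cells, that of mitosis genes −0.050 in KD and 0.11 in WT cells, and that of all genes 0.15 in KD and 0.17 in WT cells. These mitosis values include Kif11, which varied widely among replicates. Without Kif11 the mitosis median was −0.297 in KD and 0.018 in WT cells, and 9 were lower and 8 higher in KD cells. Scaling by library size alone moves the median of all genes to 0.52 in KD and 0.70 in WT cells. With that scaling 10 replication genes were lower and 4 higher in KD cells, and 10 were lower and 5 higher in WT cells, while 6 mitosis genes were lower and 9 higher in KD cells, and 4 were lower and 12 higher in WT cells. Over all 18975 genes that scaling put 5688 lower and 9256 higher in KD cells, and 5272 lower and 9876 higher in WT cells. Of all genes called it put 61.9% higher in KD and 65.2% in WT cells, against 53.2% and 53.3% with TMM. Relative to that of all genes, the replication median was −1.13 in KD and −1.08 in WT cells under the TMM scaling. Other replication genes, in lists described further on, fell less. Of 57 tested, 32 were lower and 15 higher in KD cells (median −0.56), and 30 and 19 in WT cells (median −0.43). Of 110 other mitosis genes 47 were lower and 46 higher in KD cells (median −0.086). In WT cells 41 were lower and 49 higher (median 0.11).

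Among the helicase subunits 5 of 6 fell and Mcm4 rose, in both genotypes. Mcm7 had 288, 279.9 and 282 CPM in KD EBs and 807, 807 and 837 CPM in KD ESCs. In WT cells it had 263, 258 and 273 CPM in WT EBs and 876, 828 and 852 CPM in WT ESCs. The fall was −1.53 in KD and −1.69 in WT cells (SE 0.048 and 0.049, edgeR adjusted p = 1.24e-13 and 4.23e-14). Mcm4 had 227, 222 and 224 CPM in KD EBs and 164, 158 and 169.6 CPM in KD ESCs. In WT cells it had 219.7, 222 and 223 CPM in WT EBs and 149, 103 and 139.6 CPM in WT ESCs. Every EB library lay above every ESC library, a rise of 0.45 in KD and 0.76 in WT cells (SE 0.095 and 0.095, edgeR adjusted p = 4.57e-04 and 2.34e-06). Mcm2, Mcm3, Mcm5 and Mcm6 fell too, with log2 fold changes between −1.42 (Mcm5) and −0.75 (Mcm2) in WT cells.

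The MCM2-7 proteins form a ring with 1 copy of each subunit, so their transcripts were also compared per length of exon. In ESCs Mcm4 was the lowest and Mcm7 the highest in all 6 libraries, at 45.8, 44.1 and 47.3 against 182, 182 and 189 CPM per kb in KD ESCs and at 41.5, 28.7 and 38.9 against 198, 187 and 193 CPM per kb in WT ESCs. The highest subunit was 3.98 to 6.51 times the lowest. The 6.51 was that of WT replicate 2, and the next highest ratio was 4.95 in WT replicate 3. In EBs the 6 transcripts were closer together: Mcm2 was the lowest (35.2, 36.3 and 36.6 CPM per kb in KD EBs, 35.6, 36.8 and 36.7 in WT EBs) and Mcm3 the highest (68.1, 70.6 and 70.0 CPM per kb in KD EBs, 69.2, 70.9 and 73.4 in WT EBs), a ratio of 1.92 to 2.00. The exon length is that of all annotated exons together, 6956 bases for Mcm2 and 3589 (Mcm4) to 4666 (Mcm6) for the others. Before division by length Mcm2 averaged 250.6 CPM in KD EBs and 253.0 CPM in WT EBs, above Mcm4, Mcm5 and Mcm6. The low rank of Mcm2 and the EB ratios thus depend on that length. Mcm7 shares 12.58% of its exon bases with Cops6, Ap4m1 and 2 miRNA genes. Its level per kb thus depends on how reads in the shared bases were assigned, which was not tested.

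**Figure D4:**
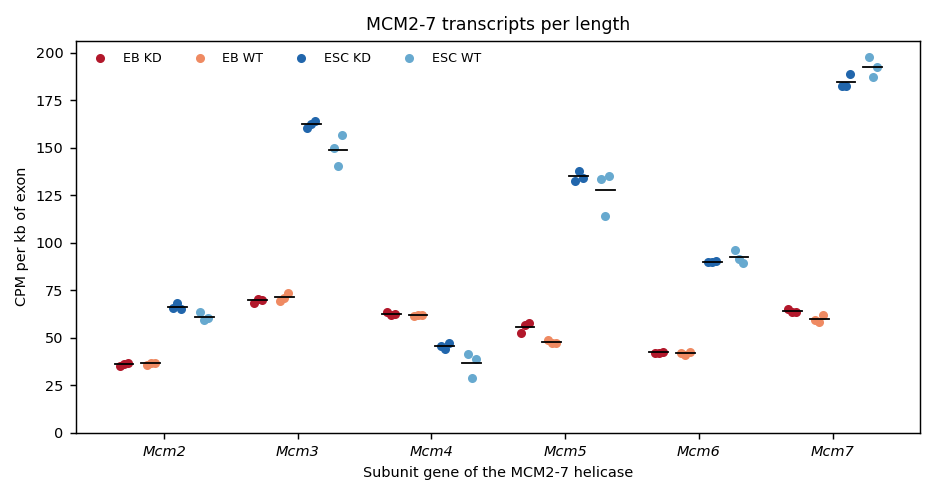
CPM per kb of exon for the 6 subunit genes of the MCM2-7 helicase in each library (points), with group means (lines), on the normalisation of all 12 libraries. Mcm4 is higher in EBs than in ESCs while the other 5 are lower, and the 6 genes lie within a ratio of 2.00 of each other in every EB library.

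The members that load and fire the helicase fell, apart from Cdc6. Gins1 had 22.7, 21.9 and 25.6 CPM in KD EBs and 75.7, 68.2 and 70.9 CPM in KD ESCs, and in WT cells 18.9, 17.8 and 19.1 CPM in WT EBs and 69.3, 60.2 and 63.1 CPM in WT ESCs. The EB libraries were far below the ESC libraries (−1.61 in KD and −1.79 in WT cells, SE 0.086 and 0.086). Cdt1 had 92.2, 91.0 and 96.1 CPM in KD EBs and 284, 282 and 297 CPM in KD ESCs, and in WT cells 107, 103 and 105 CPM in WT EBs and 263, 245 and 267 CPM in WT ESCs. It fell by 1.63 in KD and by 1.30 in WT cells on the log2 scale. Mcm10, Cdc45 and Gins2 fell as well, with WT log2 fold changes of −1.38, −1.17 and −1.22. Cdc6 was not called in either genotype (0.016 in KD and −0.082 in WT cells). Other genes of these steps, in lists described further on, were divided. Origin firing and fork genes had 4 of 13 lower and 6 higher in KD cells (median 0.23). In WT cells 4 were lower and 8 higher (median 0.57). Origin recognition and licensing genes had 5 of 10 lower and 2 higher in KD cells (median −0.36). In WT cells 5 were lower and 4 higher (median −0.050).

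The polymerase, clamp and nucleotide members changed less. Pcna was lower in EBs (−0.41 in KD and −0.41 in WT cells), but with library size alone the KD value was −0.040 and the WT value 0.12, and neither was called. Pole was at −0.45 in KD and −0.65 in WT cells, and Rrm2 at −0.40 and −0.69, all called. Pole and Rrm2 too lost their calls in both genotypes with library size alone. Rrm1 rose while its partner Rrm2 fell. Rrm1 had 234, 223 and 226 CPM in KD EBs and 169.8, 178 and 178 CPM in KD ESCs, and in WT cells 219, 219 and 229.7 CPM in WT EBs and 169, 153 and 164 CPM in WT ESCs (log2 fold changes 0.38 and 0.46). Pola1 was called higher in KD cells (0.39, edgeR adjusted p = 9.06e-04) and was at 0.086 (SE 0.09) in WT cells. Rfc4 was not called in either genotype (−0.096 in KD and 0.23 in WT cells). In the lists of other genes, these functions did not change less than helicase loading and firing. Polymerase, clamp loading and lagging strand genes had 16 of 24 lower and 4 higher in KD cells (median −0.76). In WT cells 14 were lower and 4 higher (median −0.94). Nucleotide supply genes had 7 of 10 lower and 3 higher in both genotypes (medians −1.35 in KD and −1.94 in WT cells).

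Of the mitosis genes Mki67 rose most among those with a narrow spread. It had 373, 338 and 338 CPM in KD EBs and 147, 148 and 142 CPM in KD ESCs, and in WT cells 322, 305 and 324 CPM in WT EBs and 149, 152 and 147 CPM in WT ESCs. EB libraries were far above the ESC libraries (1.26 in KD and 1.09 in WT cells, edgeR adjusted p = 3.23e-12 and 1.79e-11). Birc5 fell most. It had 91.3, 91.3 and 95.0 CPM in KD EBs and 319.7, 305 and 322 CPM in KD ESCs, and in WT cells 126, 119 and 126 CPM in WT EBs and 359, 398 and 359 CPM in WT ESCs. The difference was −1.77 in KD and −1.59 in WT cells (edgeR adjusted p = 1.18e-13 and 3.56e-13).

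The kinase pair of the Aurora family moved in opposite directions. Aurka had 139, 140.4 and 141 CPM in KD EBs and 331, 329 and 322 CPM in KD ESCs, and in WT cells 162, 168 and 165 CPM in WT EBs and 337, 324 and 325 CPM in WT ESCs. It was lower in EBs (−1.23 in KD and −0.997 in WT cells). Aurkb had 81.7, 81.4 and 80.8 CPM in KD EBs and 68.3, 64.9 and 70.7 CPM in KD ESCs, and in WT cells 109.5, 111 and 115 CPM in WT EBs and 60.6, 47.5 and 69.0 CPM in WT ESCs. It was higher in EBs (0.26 in KD and 0.92 in WT cells, edgeR adjusted p = 0.0225 and 2.51e-07), and the KD call was lost without any 1 of the 3 KD ESC libraries or without WT ESC replicate 1 (adjusted p up to 0.181). Birc5, the survivin partner of Aurkb, was thus lower in EBs while Aurkb itself was higher.

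The cyclins were divided in the same way. Ccna2 was higher in EBs (0.36 in KD and 0.53 in WT cells). Ccnb2 was lower (−1.24 in KD and −0.59 in WT cells, the WT call lost with library size alone), as was Cdk1 (−0.71 and −0.73) and Cdc20 (−0.86 and −0.82). Plk1 was lower (−0.54 in KD and −0.18 in WT cells, where library size alone gives 0.36). Ccnb1, Bub1b and Tpx2 were called lower in KD cells alone (−0.31, −0.34 and −0.30), with WT values of −0.13, −0.0029 and 0.018. With library size alone all 3 lost the call in KD cells, at 0.056, 0.032 and 0.072. The interaction given above is the test of that difference between genotypes: it was called for Bub1b and Tpx2 and not for Ccnb1 (edgeR adjusted p = 0.145).

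The checkpoint genes Mad2l1, Bub1 and Ttk and the chromosome genes Cenpe and Top2a rose. Mad2l1, the checkpoint protein that binds Cdc20, had 98.3, 98.6 and 103 CPM in KD EBs and 66.9, 69.5 and 72.8 CPM in KD ESCs, and in WT cells 93.8, 92.2 and 94.7 CPM in WT EBs and 64.3, 50.6 and 55.5 CPM in WT ESCs. All EB libraries were above all ESC libraries (0.52 in KD and 0.72 in WT cells). Bub1 (0.43 in KD and 0.45 in WT cells), Cenpe (0.60 and 0.45), Ttk (0.32 and 0.20) and Top2a (0.20 and 0.31) were called higher too. The WT call of Ttk was lost in 6 of the 12 fits without 1 library (without any KD ESC library, WT ESC replicate 2 or 3, or WT EB replicate 1), and the KD call of Top2a without KD ESC replicate 1 or 3 (adjusted p = 0.148 and 0.105).

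Kif11, the motor that pushes spindle poles apart, could not be compared. Its counts were 453, 1644 and 937 in KD EBs, 983, 508 and 169 in WT EBs, 51, 47 and 168 in KD ESCs and 37, 78 and 302 in WT ESCs. Replicates of a group differed by a factor of 3 or more in every group. The median within-group SD of its log2 CPM was 1.12, the 12th widest of the 12290 genes with a mean count of at least 100, for which the median was 0.10. By this median over the groups the other 35 members lay below 0.10. In WT ESCs alone many were wider, up to 0.478 for Rfc4 and 0.398 for Mcm4. Kif11 was called in 1 comparison, EB minus ESC in KD cells (3.01, SE 1, edgeR adjusted p = 0.0224), and the call was lost without KD ESC replicate 1 or 2 or KD EB replicate 2 (adjusted p up to 0.0759). The cause of the spread was not tested.

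**Figure D5:**
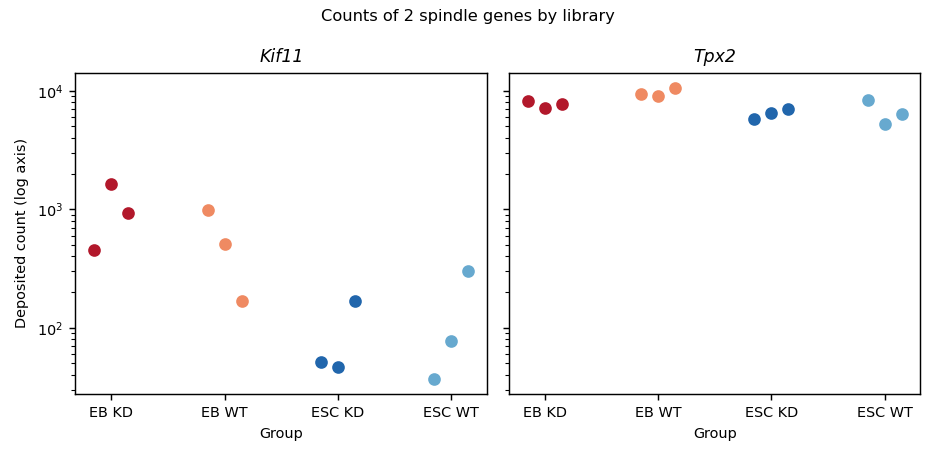
Deposited counts (log axis) of Kif11 and of Tpx2, another spindle gene, in each library by group. Kif11 counts differ by a factor of 3 or more among replicates of each group, from 37 to 1644 over all 12, while those of Tpx2 stay close together.

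The other genes of these pathways, in lists chosen with earlier results known, are read against all genes tested in EBs, of which 27.7% were lower and 28.0% higher in KD, with a median of 0.002. In KD EBs 21 of 56 other replication genes tested were lower and 11 higher, and 41 of 109 other mitosis genes were lower and 28 higher, with medians of −0.018 and −0.017. The contrast between the classes was thus that of the members and was not seen in these pooled lists. The list of spindle, kinesin and cytokinesis genes had 16 of 24 lower and 3 higher (median −0.20). Hmmr, a spindle assembly factor, had 129.8, 124 and 116 CPM in KD EBs and 259, 269.8 and 258 CPM in WT EBs, a fall by 1.09 on the log2 scale and the largest fall named from these lists. Of the 14 kinases and phosphatases of mitotic entry and exit 8 were lower and 3 higher (median −0.15), from Cdc25c, the phosphatase that activates Cdk1 (−0.53), to Mastl, which restrains a phosphatase in mitosis (0.45). Both tested chromosomal passenger genes were lower. Cdca8 (borealin), which joins Birc5 and Aurkb in that complex, had 147, 146 and 137 CPM in KD EBs and 197, 209 and 211 CPM in WT EBs (−0.52).

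The anaphase-promoting complex had 8 of 18 genes higher and 3 lower (median 0.11), against 28.0% and 27.7% of all genes. Its subunit Anapc5 had 399, 381 and 371 CPM in KD EBs and 250.5, 247 and 247 CPM in WT EBs (0.63). The checkpoint and kinetochore list had 9 of 33 higher and 7 lower (median 0.026), with Cenpt, a kinetochore scaffold, at 0.70 and Cenpa, the histone variant of centromeres, at −0.37. Condensin and cohesin genes had 5 of 18 higher and 5 lower (median 0.032), and the counts of both lists are near or under the shares of all genes. In the second list Stag1 of cohesin was at 0.74 and Ncapd2 of condensin at −0.49.

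Among the replication lists in KD EBs, polymerase, clamp loading and lagging strand genes had 12 of 23 lower and 4 higher (median −0.13), from Pold2, a subunit of polymerase delta (−0.69), to Dscc1 of the alternative clamp loader (0.66). The counts of the other replication lists were small and mostly near or under the 27.7% lower and 28.0% higher of all genes. Origin recognition and licensing genes had 3 of 10 lower (Mcm8, −0.27). Origin firing and fork genes had 4 of 13 lower and 4 higher, with Cdc7, the kinase that fires origins, at −0.43 and Clspn at 0.21. Nucleotide supply genes had 2 of 10 lower and 3 higher. Tyms, which makes thymidylate, had 92.0, 91.9 and 89.96 CPM in KD EBs and 61.0, 64.2 and 62.4 CPM in WT EBs (0.55), and Dut was at −0.43. S phase chromatin assembly genes had 2 of 9 lower and 2 higher (Hat1 −0.31, Asf1a 0.39), and replication checkpoint genes 2 of 12 lower and 3 higher (Rad1 −0.46, Brca2 0.42).

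Among the regulators, the E2F and pocket protein list had 5 of 16 lower and 8 higher in KD EBs (median 0.13), against 27.7% lower and 28.0% higher of all genes. The pocket protein Rb1 had 15.1, 17.9 and 17.5 CPM in KD EBs and 25.3, 27.2 and 23.4 CPM in WT EBs (−0.59), and its relative Rbl2 was at 0.55. MuvB, B-MYB and FOXM1 genes had 1 of 7 lower and 3 higher, with the MuvB subunits Rbbp4 at −0.18 and Lin54 at 0.38. Of the 11 mitosis members with a CHR match in their promoter 6 were lower and 2 higher in KD EBs, and of the 4 without it 2 were lower. Of the 7 replication members with an E2F-type match 2 were lower and 3 higher, and of the 7 without it 2 were lower and 1 higher. The counts with and without a match are too small to set against these shares, and their difference was not tested.

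Over the 12 libraries and 9822 other genes with a mean of at least 10 CPM, the genes whose log2 CPM followed the mean of the 18 replication genes most closely were Cars2, Sema4b, Mybl2, Rfx2 and Slc25a5 (Pearson r from 0.9970 to 0.9973). Mybl2 encodes B-MYB, which was also in the MuvB list. For the mean of the mitosis genes these were Ermard, Kbtbd8, Gm9816, Pfas and Kdf1 (r from 0.724 to 0.788). Without Kif11 they were Tbc1d8, Kdm1a, Pif1, Odf2 and Mettl5 (r from 0.963 to 0.985). The 12 libraries come from 2 stages and share them in every such r, which is given as a description.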

How the data were processed

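Gene counts of 12 libraries were used, from separate tables for ESCs and EBs. The submitters' processing notes name HISAT2 2.1.0, featureCounts 2.0.3, DESeq2 1.18.1 and the build mm10. The deposited values are raw counts per gene, made per the file headers from paired reads with no strand option, on the Ensembl release of GRCm38 that the header names. Low counts were mostly even (61.7% to 68.7% of counts from 1 to 10, against 48.0% to 51.6% of those from 101 to 1000), so mates were counted singly and fragments are fewer than counts. No other columns of per-sample values were left over (0).

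KD was compared with WT in each stage, and EB with ESC and the interaction in 1 fit of all 12 libraries in 4 groups, by edgeR 4.0.16 (quasi-likelihood F-test, TMM, robust) in R 4.3.3, with filterByExpr (minimum count 10, minimum total 15). P-values were adjusted by Benjamini-Hochberg over all genes tested, with a threshold of 0.05. The SE was obtained as |log2 fold change|/√F. The scripts were tested on simulated data. Alternatives were DESeq2 1.42.0, other scalings, no filter, a replicate block, other libraries in the fit and each library left out. Genes named beyond the 36 members were the called gene with the largest rise and fall in KD EBs of each list, and the 5 genes most like each class mean. Members, lists and tests were chosen with earlier results of these data known. Promoters are from RefSeq on GRCm38.p6. Same-numbered libraries did not deviate together (correlations between −0.0264 and 0.0372). Gene identifiers were matched to symbols for 52403 of 52636 genes. No replicate pair held identical values. Counts include PCR copies, so errors come from the spread among libraries.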

Additional observations from a re-analysis of the deposited data

Results flagged for a closer look

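The effect of the KD differed between the stages for 8 members in the interaction test over all 12 libraries (edgeR, adjusted p under 0.05). As the log2 fold change in EBs minus that in ESCs, the values were −0.665 for Aurkb, −0.647 for Ccnb2, −0.365 for Plk1, −0.334 for Bub1b, −0.326 for Cdt1, −0.316 for Tpx2, −0.228 for Aurka and 0.294 for Rrm2. The call of Aurka was lost with no filter on low counts (adjusted p = 0.0568). That of Rrm2 was lost with library size alone (0.134) and in 6 of 12 fits without 1 library. Explanations were not tested.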

How the results depend on the processing

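In ESCs the number of genes called moved from 97 to 36 with library size alone, 1030 with DESeq2, 1769 with no filter, 1999 in the fit of all 12 libraries and 266 with the replicate block, and ran from 8 to 1557 without 1 library, the highest without WT replicate 2. Called replication members in ESCs were 1 with DESeq2, 2 with no filter, 2 in the fit of all 12 libraries and 0 to 2 without 1 library; called mitosis members were 1 with no filter, 2 in the fit of all 12 and 0 to 2 without 1 library. In the interaction, called replication members were 5 with DESeq2 and 1 to 7 without 1 library. Of all genes, 5348 were called there with DESeq2 and 3389 to 5507 without 1 library.

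Without Kif11, a choice made after seeing the data, the difference of replication minus mitosis moved to 0.233 for KD minus WT in EBs, 0.187 for the stage difference, −0.525 for EB minus ESC in KD cells and −0.711 in WT cells; summed CPM gave −0.643 in KD cells.

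Among the members named for each comparison, directions turned as follows. In KD minus WT in EBs, the fit of all 12 libraries gave 0.018 for Mcm4, 0.015 for Mcm6 and 0.032 for Rrm1, none of them called. In EB minus ESC in KD cells, library size alone gave 0.274 for Rfc4, 0.056 for Ccnb1, 0.032 for Bub1b and 0.072 for Tpx2, and Cdc6 was at −6.57e-04 with RLE size factors and −2.31e-04 with DESeq2. In WT cells, library size alone gave 0.447 for Cdc6, 0.124 for Pcna, 0.399 for Ccnb1, 0.356 for Plk1 and 0.532 for Bub1b, no filter gave 0.038 for Bub1b, and RLE and DESeq2 gave −0.027 for Tpx2. Leaving out 1 library turned the sign of 6 of 36 members in KD minus WT in ESCs, 1 in EBs, 7 in the stage difference, and 1 in KD and 3 in WT cells in EB minus ESC, 0 of them called in that comparison with all libraries. Of those, KD minus WT of Kif11 in ESCs ran from −1.40 to 0.652 and of Gins2 in EBs from −0.043 to 0.063, and EB minus ESC ran from −0.076 to 0.031 for Cdc6 in KD cells, and from −0.016 to 0.155 for Pola1, −0.0497 to 0.0296 for Bub1b and −0.0795 to 0.046 for Tpx2 in WT cells. The causes were not tested.

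The replicate numbers did not pair the libraries. With the replicate block 11 replication and 15 mitosis members were called in EBs, against 10 and 13 without it. Of all 17355 genes tested in EBs it called 9655, against 9667 without it. In ESCs the block called 0 members of either class. Depth of 25.4 to 37.8 M counts limits the precision of each value, as does the spread among 3 libraries a group.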

Other observations

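Kif11 was 1 of 25 genes whose within-group SD of log2 CPM was above 0.7, of 12290 genes with a mean count of at least 100. The widest were Ppp1ca (SD 2.52, counts from 101 to 4473), Rnf181 (2.42, 21 to 1250) and Uqcrc1 (2.33, 68 to 5788). The mitotic kinase gene Nek2 (1.35, counts from 2 to 750) and the checkpoint gene Rad9a (1.63, 45 to 847) were also among them. Of the 25 genes 11 lay within 200 kb of another of them, such as Ppp1ca and Rad9a on chromosome 19. These genes were picked for their spread after the data were seen, and its cause was not tested.

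Cdkn1c, which encodes the cyclin-dependent kinase inhibitor p57, had 12.7, 12.7 and 13.7 CPM in KD EBs and 134, 137 and 138 CPM in WT EBs. In ESCs it had 1.55, 1.16 and 0.958 CPM in KD cells and 4.23, 5.43 and 3.67 CPM in WT cells. It was in no list and was looked up after the data were seen, so no test is given.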
